A study of Homo sapiens with 6 samples.

Results

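Genes of the amino acid response controlled by the transcription factor ATF4, together with the enzymes of serine synthesis, were examined in the established human line LX-2, which derives from hepatic stellate cells. The 37 genes were listed by symbol for their known roles, with earlier results of these data known, and all 37 were found among the 60605 rows of the count table with an Ensembl identifier. They comprised 7 transcription factors, 4 feedback and stress effectors, 7 enzymes of serine synthesis and the mitochondrial folate cycle, 6 other amino acid enzymes, 7 amino acid transporters, 4 genes for secreted factors and a receptor, and 2 genes of translation. The cells were sequenced after 24 h in medium that HCT116 cells, from an established line of human colorectal carcinoma, had conditioned. The HCT116 cells carried a lentiviral empty vector (Vector-CM, n = 3) or a lentiviral FGFBP1 expression plasmid (FGFBP1-CM, n = 3), FGFBP1 being a secreted carrier protein that releases fibroblast growth factors from the extracellular matrix. The LX-2 cells of both groups were otherwise the same, and the study's methods describe puromycin selection of stable clones, without giving how many clones made up each HCT116 line. The labels do not say that the 3 libraries of a group came from separate cultures, so p-values measure the spread between these libraries, which may be technical. The comparison asks how the secretome of FGFBP1-overexpressing tumor cells alters stellate cell transcripts.

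When amino acids run short, uncharged transfer RNAs activate the kinase GCN2, which phosphorylates the initiation factor eIF2. Most translation then falls while the messenger RNA of ATF4 is translated more, so ATF4 activity is set largely at the protein level and a transcript level reports only part of it. ATF4 binds DNA with partners of the CCAAT/enhancer-binding protein (C/EBP) family at composite elements and raises genes for amino acid import, for synthesis of serine, glycine, asparagine and proline, and for transfer RNA charging. In activated stellate cells, which secrete collagen rich in glycine and proline, the serine and proline routes supply building blocks of the matrix.

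Total counts were 14003780 to 18508113 per library. Of the 12 stellate cell and fibroblast markers, 11 had counts and LRAT, the retinoid-storing enzyme of quiescent stellate cells, was at 0 in all 6 libraries. The summed level of the list was 3554 to 3822 CPM in Vector-CM and 2761 to 3294 CPM in FGFBP1-CM, most of it from VIM, the intermediate filament vimentin, where CPM is the count per 1000000 of the scaled size of its library. Of the 10 tested, 9 had fitted values below 0 and 4 had an unadjusted p under 0.05, all lower (40%, against 10.7% of all genes). TIMP1, an inhibitor of matrix metalloproteinases, passed the threshold of an adjusted p under 0.05 at -0.38 on the log2 scale (adjusted p = 0.0465, edgeR), but not when any one Vector-CM library was left out. Of 18 colorectal epithelial markers, 17 had counts but their sum was only 6.22 to 8.83 and 5.38 to 7.41 CPM, and CEACAM5 was at 0. Of 15 hepatocyte markers all had counts, with sums of 42.4 to 45.5 CPM in Vector-CM and 18.7 to 28.5 CPM in FGFBP1-CM, and SERPINA1 made up most of the sums. Only 6 of the 15 were tested. All 6 had lower values in FGFBP1-CM without overlap (100%, against 13.2% of all genes), and 4 passed this threshold (against 0.12% of all genes). APOB, ALB, AFP, FGA and TF, the iron carrier transferrin, passed the filter on low counts only through Vector-CM, where they were higher. SERPINA1 alone would also have passed through FGFBP1-CM. That all tested markers were lower was therefore mostly set by the filter, which also favored the calls among them. APOB, the protein of very-low-density lipoprotein, had counts of 57, 41 and 59 against 4, 7 and 3 (log2 fold change -3.59, adjusted p = 0.00034), ALB, albumin, 45, 47 and 65 against 16, 7 and 9 (-2.44, adjusted p = 0.00869), AFP, the fetal serum protein, 36, 47 and 58 against 11, 13 and 10 (-2.19, adjusted p = 0.0217), and FGA, a fibrinogen chain, 14, 13 and 16 against 1, 2 and 0 (adjusted p = 0.0249). Of these, only APOB kept an adjusted p under 0.05 whichever library was left out. The part that either marker list had in the results for the members was not tested. In bulk RNA, fewer cells of a type and less RNA per cell cannot be told apart.

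The promoters were read for the composite element because it is the sequence through which ATF4 targets are usually recognized. RefSeq promoters (GRCh38.p14, 250 bases before to 50 bases after the start) were matched by symbol for 29 of the 37 members, and the remaining ALDH1L2, EIF4EBP1, GPT2, NUPR1, PSPH, PYCR1, SHMT2 and SLC7A3 had no entry. The letters TGATGNAA, on either strand, were present in at least 1 promoter of 9 of the 29 members (31.0%). The share was 4.46% of the 27305 genes of the table and 2.79% of the 11094 tested genes with a promoter. Counted by promoter, 11 of 47 member entries held it (23.4%), against 3.62% of all entries and 2.05% of those of tested genes. The matching MTHFD1L entries held the same site. ASNS, ATF3, CEBPG, MTHFD1L, SLC1A4 and SLC1A5 also had an entry without the element. The members with a match were ASNS, ATF3, CEBPG, CHAC1, FGF21, MTHFD1L, SLC1A4, SLC1A5 and SLC7A1. Of these, 6 are printed below because they share the element while their transcripts spanned the range of the measured differences. Each is read 5′ to 3′ on the strand of the gene with the element in capitals, and CHAC1 carries it on the opposite strand.
CHAC1 (chr15:40953251-40953280, plus strand, element from position -209): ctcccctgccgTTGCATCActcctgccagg
CEBPG (chr19:33374060-33374089, plus strand, element from position -42): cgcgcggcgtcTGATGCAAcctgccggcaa
SLC1A5 (chr19:46784893-46784922, minus strand, element from position -97): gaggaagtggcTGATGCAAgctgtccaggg
SLC7A1 (chr13:29595663-29595692, minus strand, element from position 7, inside the transcript): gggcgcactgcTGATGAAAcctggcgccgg
ATF3 (chr1:212565205-212565234, plus strand, element from position -191): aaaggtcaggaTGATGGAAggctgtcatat
ASNS (chr7:97872458-97872487, minus strand, element from position -68): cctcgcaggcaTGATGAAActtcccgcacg
Positions count from the transcription start of the matching promoter entry and are negative before it. A match is a description of the letters and not evidence of binding. Of the 16 cytosolic aminoacyl-tRNA synthetase genes with a promoter entry, which are a further group of reported ATF4 targets, 7 held the element (43.8%). This was the highest share among the further pathway lists described below. The list of other reported ATF4 targets held it in 2 of 17 genes (11.8%), and the mitochondrial synthetases in 1 of 14 (7.14%). The remaining lists ran from 0 of 13, for other folate and glycine enzymes, to 2 of 9 (22.2%), for proline, glutamate and methionine enzymes.

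The level of the members ranged from absent to among the abundant transcripts of these cells. Levels between genes were compared as FPKM, the deposited value that divides the fragments of a gene by its length and by the depth of the library. ATF4 had the highest mean level at 89.6 ± 12.6 FPKM (SD, n = 6), next to SLC38A2, a sodium-coupled transporter of small neutral amino acids, at 87.4 ± 13.1 FPKM. The 2 did not differ beyond their spread. EIF4EBP1, which encodes a translation repressor inactivated by mTORC1, followed at 72.1 ± 3.14 FPKM, XPOT, the nuclear exporter of transfer RNA, at 50.5 ± 1.49 FPKM, and PSAT1, the aminotransferase of serine synthesis, at 46.3 ± 11 FPKM.

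Several members that often serve as readouts of the amino acid response were low. ASNS, asparagine synthetase, was at 0.920 ± 0.117 FPKM, and CHAC1, an enzyme that degrades glutathione, was at 0.831 ± 0.573 FPKM. The lowest of the members tested was NUPR1 at 0.273 ± 0.0642 FPKM. Of the 37 members, 4 did not pass the filter on low counts and were not tested. GDF15, a stress-induced hormone, had counts of 7, 8 and 6 in Vector-CM and 8, 7 and 9 in FGFBP1-CM. SLC6A9, a glycine transporter, had 4, 0 and 2 against 2, 2 and 1 counts, and FGF21 and SLC7A3, a fasting hormone and a cationic amino acid transporter, each had 1 count in FGFBP1-CM replicate 3 and 0 in the other libraries. The limit that a count of 0 allows, 3 counts, was 0.162 to 0.214 CPM on the unscaled library size and covers counting error only.

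**Figure D1:**
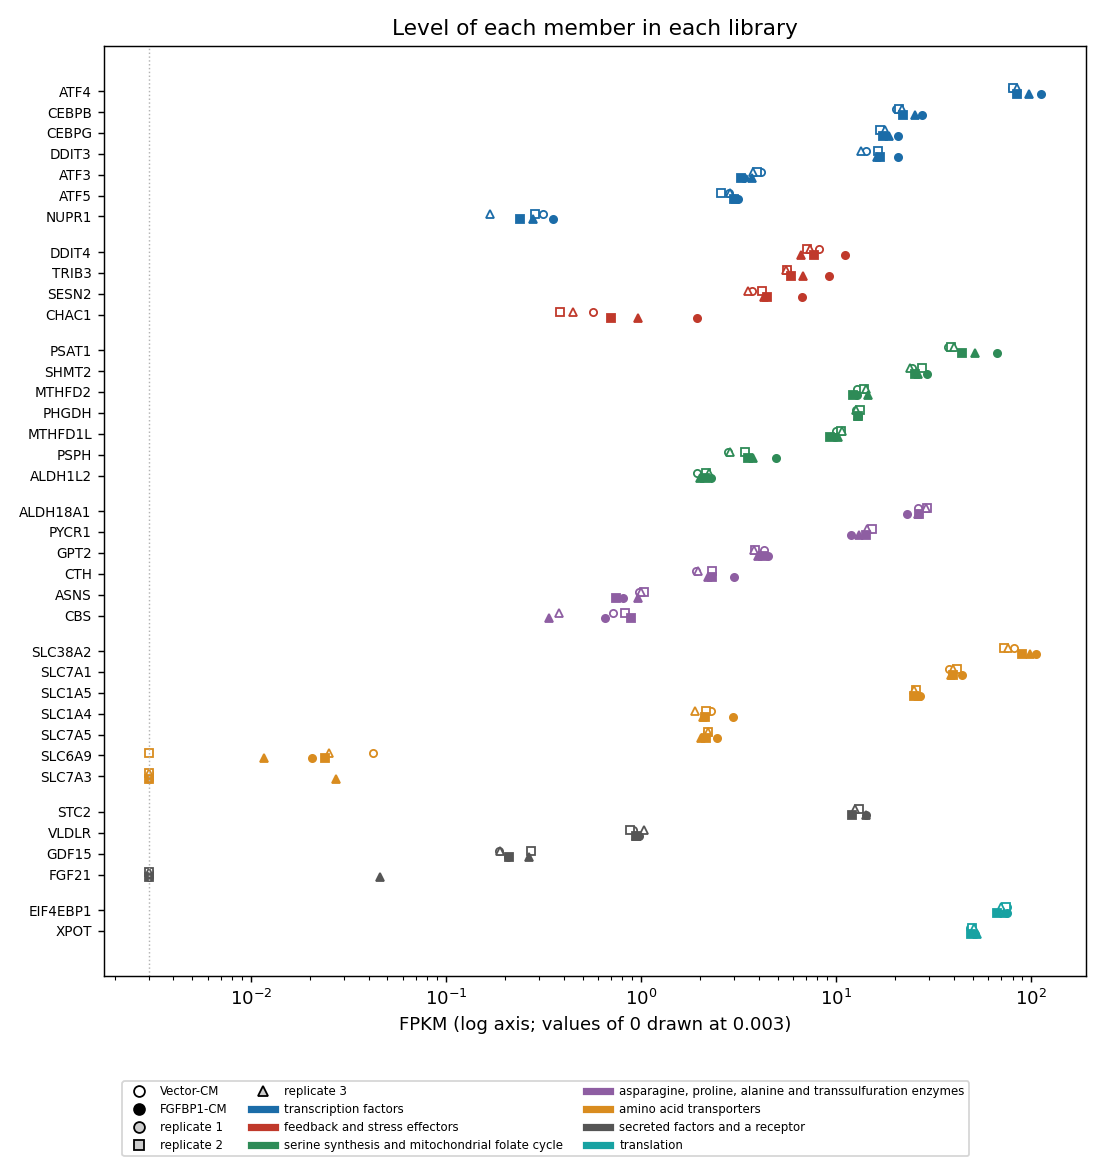
FPKM (log axis) of each of the 37 members in each library, with open symbols for Vector-CM, filled symbols for FGFBP1-CM, and the symbol shape giving the replicate number. ATF4 and SLC38A2 have the highest means at 89.6 and 87.4 FPKM, while SLC6A9, SLC7A3, GDF15 and FGF21 lie below 1 FPKM.

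None of the 33 members tested passed the threshold. By the quasi-likelihood test of edgeR, with p-values adjusted over all 16707 genes tested, 0 members had an adjusted p under 0.05, against 20 of all genes (0.12%). At an unadjusted p under 0.05 there were 9 members with a higher level in FGFBP1-CM (27.3%), against 11.1% of all genes, and 3 members with a lower level (9.09%), against 10.7% of all genes. The 9 were SLC38A2, PSAT1, CHAC1, PSPH, ATF4, TRIB3, SESN2, CEBPB and DDIT3, and the 3 were PYCR1, ALDH18A1 and ATF3. By the Wald test of DESeq2, 2 members passed, SLC38A2 and PSAT1, both higher, against 3.69% of all genes. With no filter on low counts 6 members passed, all higher, against 3.64% of all genes. With the replicate number as a block 1 passed, against 0.539%, and with a GC and length correction added to the block 1 passed, against 0.97%. Without FGFBP1-CM replicate 2 there were 5 members past the threshold (ATF4, TRIB3, CHAC1, PSAT1 and SLC38A2), all higher, against 5.15%, and without replicate 3 there was 1, PSAT1, against 2.34%. The groups did not overlap for 7 members that were higher, against 12.8% of all genes, and for 3 that were lower, against 13.2%. The fitted log2 fold change was above 0 for 21 members (63.6%, against 50.7% of all genes) and below 0 for 12. Its median was 0.06 over the 33, while the median over all genes was 0.0032. When scaled by library size alone, 25 members were above 0 and 8 below. That scaling moved all genes upward, with medians of 0.09 over the members and 0.037 over all genes.

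**Figure D2:**
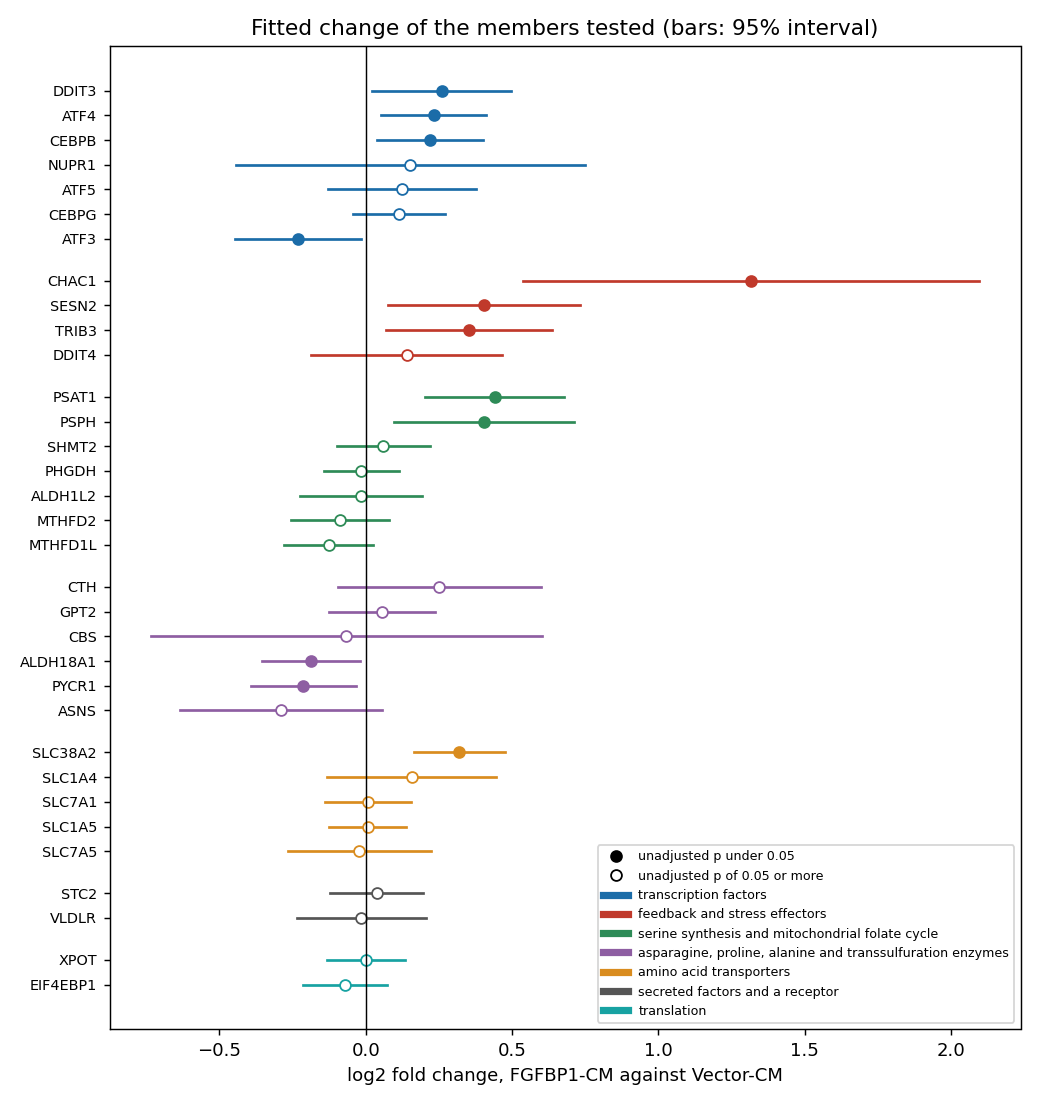
Fitted log2 fold change of FGFBP1-CM against Vector-CM for the 33 members tested, grouped by role, with bars giving the 95% interval and filled points an unadjusted p under 0.05. CHAC1 stands farthest to the right at 1.32, and ASNS farthest to the left at -0.29.

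Of the 7 transcription factors, none passed the threshold, 6 had a fitted value above 0 and 1 below it. ATF4 (ENSG00000128272, chr22:39519695-39522685) was measured at 208, 213 and 226 CPM in Vector-CM replicates 1 to 3 and at 285, 222 and 252 CPM in FGFBP1-CM replicates 1 to 3. The ranges of the groups overlapped, with FGFBP1-CM replicate 1 standing highest. The log2 fold change of ATF4 was 0.23 (SE 0.084, 95% interval 0.05 to 0.41, adjusted p = 0.141, edgeR), or 1.17-fold.

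CEBPB, a C/EBP factor that ATF4 partners with, was at 37.2, 39.2 and 41.0 CPM in Vector-CM and at 49.3, 40.5 and 46.4 CPM in FGFBP1-CM, for a fitted log2 difference of 0.22 (SE 0.084, adjusted p = 0.161). DDIT3, also known as CHOP, a death-promoting factor of prolonged stress, was at 18.6, 21.7 and 18.0 against 26.5, 22.0 and 21.0 CPM, for a log2 difference of 0.26 (SE 0.111, adjusted p = 0.195). In both genes FGFBP1-CM replicate 1 was the highest library and the other FGFBP1-CM libraries lay partly within the Vector-CM range. Of the annotated exon bases of DDIT3, 39.6% lie in exons of other genes, mainly of the methionyl-tRNA synthetase gene on the opposite strand, which had 15120 counts over the 6 libraries. Whether counting used strand is not stated, so reads of the pair cannot be told apart.

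ATF3, a stress-induced repressor that ATF4 activates, was the one factor with a fitted value below 0. Its levels were 16.7, 16.1 and 15.5 CPM in Vector-CM and 13.2, 13.2 and 14.8 CPM in FGFBP1-CM, so every FGFBP1-CM library lay below every Vector-CM library. The log2 fold change of ATF3 was -0.23 (SE 0.10, 95% interval -0.45 to -0.02, adjusted p = 0.198). ATF5, a regulator of the mitochondrial stress response, was at 7.52 to 8.42 against 8.66 to 8.86 CPM without overlap, but its log2 fold change of 0.12 had a 95% interval from -0.13 to 0.38. Exons of other genes overlap 23.7% of the exon bases of ATF5, among them NUP62 on the opposite strand, with 6216 counts over the 6 libraries. CEBPG, the C/EBP member that forms a stable dimer with ATF4, was at 0.11 (SE 0.073) and NUPR1, a small stress-induced chromatin protein with 14 to 36 counts, at 0.15 (SE 0.277) on the log2 scale.

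All 4 feedback and stress effectors had fitted values above 0, and none passed the threshold. CHAC1 (ENSG00000128965, chr15:40952962-40956519) had counts of 21, 11 and 14 in Vector-CM and 73, 23 and 32 in FGFBP1-CM. All FGFBP1-CM libraries were above all Vector-CM libraries, and replicate 1 held more counts than the other 2 of its group together. CHAC1 had the largest log2 fold change of the members at 1.32 (SE 0.362, 95% interval 0.54 to 2.10, adjusted p = 0.0847), or 2.49-fold. It came to 0.79, or 1.73-fold (adjusted p = 0.235), without FGFBP1-CM replicate 1.

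TRIB3, a pseudokinase that binds ATF4 and restrains it, was at 18.5, 18.6 and 18.6 CPM in Vector-CM and at 29.4, 19.3 and 22.1 CPM in FGFBP1-CM. The Vector-CM libraries were nearly identical and all FGFBP1-CM libraries were higher, replicate 2 only slightly. For TRIB3 the fitted log2 difference was 0.35 (SE 0.132, adjusted p = 0.152). SESN2, sestrin 2, which binds leucine and inhibits mTORC1, was at 12.9, 14.6 and 12.5 against 22.6, 15.3 and 14.7 CPM, and the lowest FGFBP1-CM library was close to the highest Vector-CM library. Its log2 fold change was 0.40 (SE 0.153, adjusted p = 0.156), or 0.17 (adjusted p = 0.473) without FGFBP1-CM replicate 1. DDIT4, also known as REDD1, another mTORC1 inhibitor, was at 15.1 to 17.3 against 13.9 to 22.8 CPM with a log2 fold change of 0.14 (SE 0.152), and the value was -0.09 without FGFBP1-CM replicate 1. An antisense gene, for which no count was found, overlaps 41.2% of the exon bases of DDIT4.

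Of the 7 enzymes of serine synthesis and the mitochondrial folate cycle, none passed the threshold, 3 had fitted values above 0 and 4 below. PHGDH oxidizes the glycolytic intermediate 3-phosphoglycerate, PSAT1 transfers an amino group from glutamate to the product, and PSPH removes the phosphate to leave serine. PHGDH (ENSG00000092621, chr1:119648411-119744226), which catalyzes the committed step, was at 116, 122 and 119 CPM in Vector-CM and at 116, 119 and 118 CPM in FGFBP1-CM. The groups lay within each other's range, with a log2 fold change of -0.01 (SE 0.060) and a 95% interval from -0.14 to 0.11.

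PSAT1 (ENSG00000135069, chr9:78297143-78330093) was at 82.6, 87.0 and 90.6 CPM in Vector-CM and at 143, 97.1 and 113 CPM in FGFBP1-CM. All FGFBP1-CM libraries were above all Vector-CM libraries, with replicate 2 nearest to them. PSAT1 had a log2 fold change of 0.44 (SE 0.110, 95% interval 0.20 to 0.68, adjusted p = 0.072), or 1.36-fold. Leaving out FGFBP1-CM replicate 1 gave 0.28, or 1.21-fold (adjusted p = 0.0922).

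PSPH (ENSG00000146733, chr7:56011051-56051604) was at 7.76, 9.48 and 8.09 CPM in Vector-CM and at 13.2, 9.79 and 10.2 CPM in FGFBP1-CM. The groups did not overlap, but FGFBP1-CM replicates 2 and 3 were close to Vector-CM replicate 2. On the log2 scale PSPH differed by 0.40 (SE 0.142, 95% interval 0.10 to 0.71, adjusted p = 0.136), and by 0.26 (adjusted p = 0.365) without FGFBP1-CM replicate 1.

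None of the mitochondrial folate enzymes, which pass the carbon unit of serine into formate, had an unadjusted p under 0.05. SHMT2, which splits serine into glycine and a folate-bound carbon unit, was at 112, 128 and 112 CPM in Vector-CM and 131, 117 and 119 CPM in FGFBP1-CM, with overlapping groups and a log2 fold change of 0.06 (SE 0.074). MTHFD2, the dehydrogenase and cyclohydrolase of the next step, was at 147, 160 and 167 against 142, 139 and 165 CPM, with a log2 fold change of -0.09 (SE 0.077). MTHFD1L, which releases formate, had a value of -0.13 (SE 0.071) and ALDH1L2, which oxidizes the carbon unit to carbon dioxide, one of -0.02 (SE 0.097). Opposite-strand exons overlap 33.2% of the annotated exon bases of MTHFD2, most by those of SLC4A5, with 112 counts over the 6 libraries.

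Counts of 2 genes within a library can be set against each other without any scaling between libraries. The pairs were chosen after the values were seen, so their ratios are a description with no test. The ratio of PSAT1 to PHGDH counts was 0.712, 0.710 and 0.759 in Vector-CM and 1.23, 0.813 and 0.953 in FGFBP1-CM, and every FGFBP1-CM library had the higher ratio. The difference in the mean log2 ratio was 0.44, and that of PSPH to PHGDH was 0.40.

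The 6 enzymes of asparagine, proline, alanine and sulfur amino acid metabolism had 2 fitted values above 0 and 4 below, and none passed the threshold. ASNS (ENSG00000070669) had counts of 86, 71 and 74 in Vector-CM and 73, 58 and 77 in FGFBP1-CM, which gave 4.801, 5.136 and 4.986 against 3.851, 3.640 and 4.710 CPM. The groups did not overlap, with FGFBP1-CM replicate 3 close to the Vector-CM libraries. The log2 fold change of ASNS was -0.29 (SE 0.160, 95% interval -0.63 to 0.06, adjusted p = 0.314). A processed transcript on the same strand, with 60 counts over the 6 libraries, shares 44.6% of the annotated exon bases of ASNS. Reads of the shared stretch may have been counted for either gene or for neither. The log2 ratio of ASNS to ATF4 counts was lower in FGFBP1-CM by a mean difference of -0.52, and that of CHAC1 to ATF4 was higher by 0.98, again as a description with no test.

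Both proline enzymes had fitted values below 0, and neither passed the threshold. ALDH18A1, which makes the first intermediate from glutamate, was at 98.7, 111 and 111 CPM in Vector-CM and 84.5, 99.5 and 97.6 CPM in FGFBP1-CM, for a log2 difference of -0.19 (SE 0.078, adjusted p = 0.187). PYCR1, which completes proline in mitochondria, was at 43.0, 44.4 and 42.4 against 33.6, 41.2 and 37.3 CPM, for a log2 difference of -0.21 (SE 0.083, adjusted p = 0.164). FGFBP1-CM replicate 1 was the lowest library for both, the groups did not overlap for PYCR1, and they overlapped for ALDH18A1. Leaving that library out gave -0.11 (adjusted p = 0.485) for ALDH18A1 and -0.14 (adjusted p = 0.422) for PYCR1. Exons of other genes overlap 29.7% of the exon bases of PYCR1, and the gene with the largest overlap had 0 counts over the 6 libraries. GPT2, a mitochondrial alanine aminotransferase, had a value of 0.06 (SE 0.084), and CTH, which makes cysteine from cystathionine, one of 0.25 (SE 0.161). CBS, the enzyme before it, had 37 to 96 counts and a value of -0.07 (SE 0.310), and it has a near-identical annotated copy, CBSL, with 25 to 64 counts, so its level is uncertain.

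Of the 5 transporters tested, none passed the threshold, 4 had fitted values above 0 and 1 below. SLC38A2 (ENSG00000134294, chr12:46358189-46372867), also known as SNAT2, was at 535, 479 and 505 CPM in Vector-CM and at 674, 586 and 637 CPM in FGFBP1-CM. Every FGFBP1-CM library exceeded every Vector-CM library, with replicate 1 again the highest. SLC38A2 had the lowest adjusted p of the members, with a log2 fold change of 0.32 (SE 0.072, 95% interval 0.17 to 0.47, adjusted p = 0.0619), or 1.25-fold. The value was 0.27 (adjusted p = 0.0795) when FGFBP1-CM replicate 1 was left out.

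SLC7A1, the importer of arginine and lysine, was at 292 to 323 CPM in Vector-CM and 295 to 332 CPM in FGFBP1-CM, and its log2 fold change of 0.01 had a 95% interval from -0.14 to 0.16. SLC1A5, the glutamine exchanger also called ASCT2, was at 84.5 to 86.7 against 83.8 to 87.0 CPM, with an interval from -0.12 to 0.14. SLC7A5, the leucine exchanger also called LAT1, had an interval from -0.27 to 0.22, and SLC1A4, which carries serine and alanine, one from -0.13 to 0.45. The ratio of SLC38A2 to SLC7A1 counts was 1.48 to 1.83 in Vector-CM and 1.92 to 2.16 in FGFBP1-CM, with a mean log2 difference of 0.31.

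The 2 tested genes for secreted factors and a receptor and the 2 genes of translation had fitted values close to 0. STC2, stanniocalcin 2, had a log2 fold change of 0.04 (SE 0.074) and VLDLR, a lipoprotein receptor, one of -0.01 (SE 0.102). XPOT was at 0.00037 (SE 0.062) and EIF4EBP1 at -0.07 (SE 0.067).

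FGFBP1-CM replicate 1 stood apart from the other libraries for these genes. It had the highest level for 20 of the 33 members tested (60.6%), against 29.5% of all genes. Within FGFBP1-CM it was the highest for 23 members (69.7%), against 39.0% of all genes, and for all 9 of those with an unadjusted p under 0.05 and a higher value, which that p had partly selected. The median member stood 0.12 above the Vector-CM mean on the log2 scale in this library, against 0.0026 in replicate 2 and 0.02 in replicate 3. Its total count was the highest of the 6 libraries at 18508113, and its 10 most abundant genes took 5.05% of the counts, against 5.34% to 5.94% in the others. Their part in the result was not tested.

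**Figure D3:**
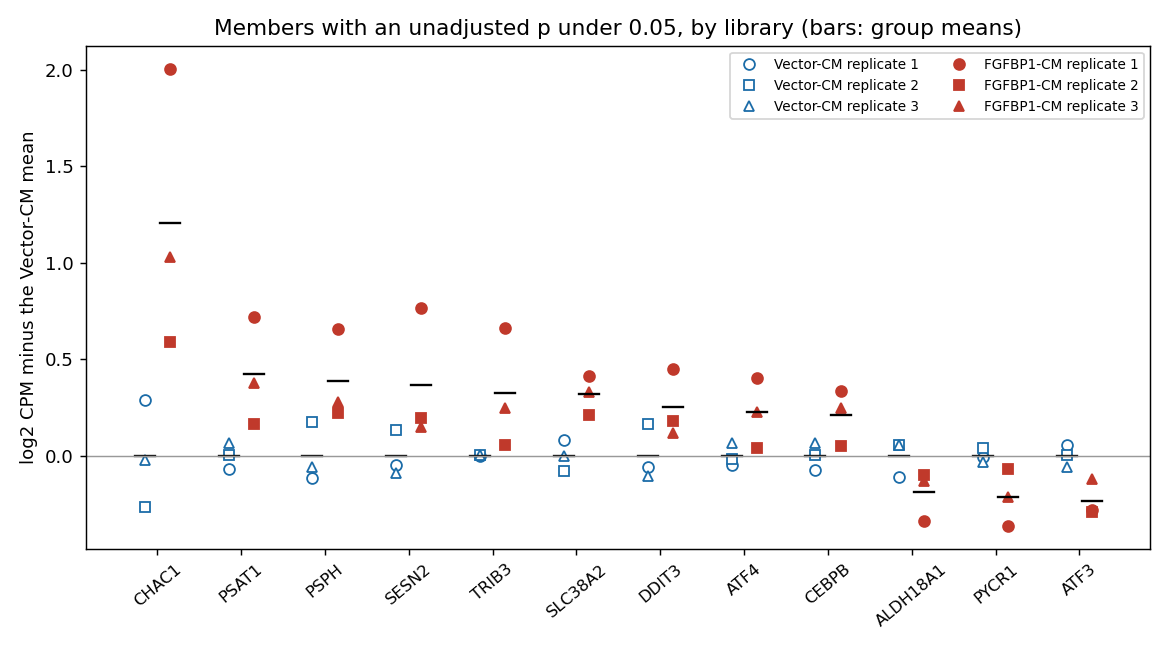
log2 CPM of the 12 members with an unadjusted p under 0.05 in each library, relative to the Vector-CM mean of each gene, with black bars for the group means. FGFBP1-CM replicate 1 (filled circles) is the highest library for CHAC1, PSAT1, PSPH, SESN2, TRIB3, SLC38A2, DDIT3, ATF4 and CEBPB, and the lowest for ALDH18A1 and PYCR1.

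Without FGFBP1-CM replicate 1, 3 members had an unadjusted p under 0.05 in the edgeR test, all higher, which is 9.09% of the members tested against 7.73% of all genes. These were CHAC1, PSAT1 and SLC38A2. The log2 fold change of ATF4 became 0.14, that of TRIB3 0.16 and that of DDIT3 0.15. The values of ATF3 and ASNS stayed below 0, at -0.20 and -0.25. The median over the members went from 0.06 to -9.74e-05, and no member passed the adjusted threshold. The excess of higher members was also absent without Vector-CM replicate 1, when 3 were higher (9.09%, against 9.21% of all genes). In that setting 1 was lower (3.03%, against 7.59%), and the member median was 0.03. Leaving out any other single library kept 7 to 9 higher members (21.2% to 27.3%).

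**Figure D4:**
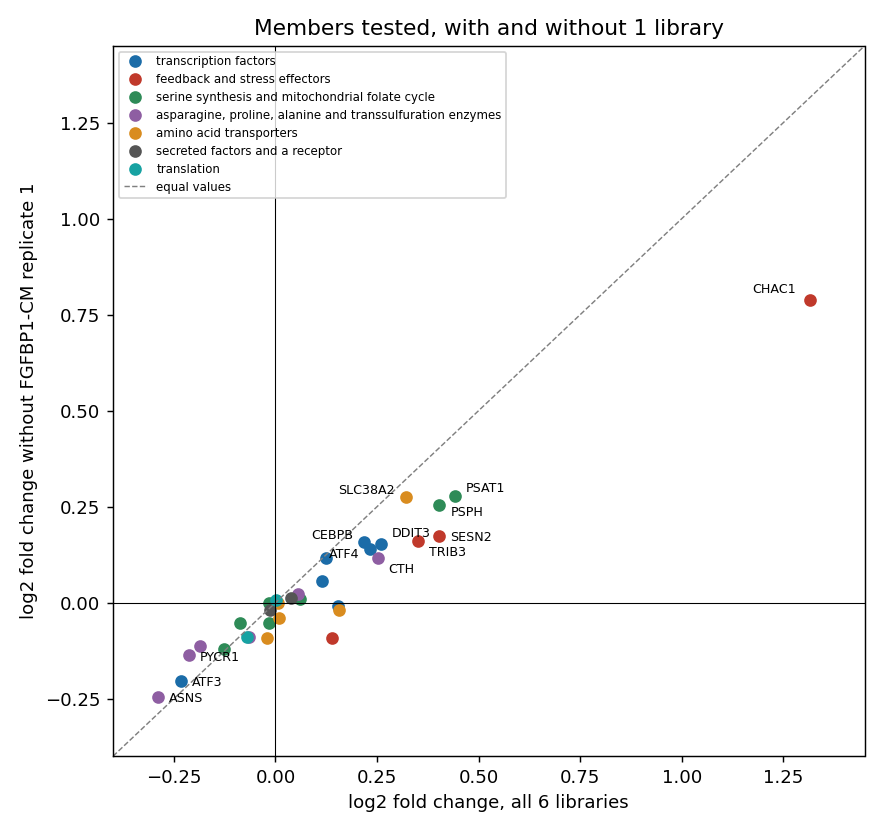
Log2 fold change of each tested member with all 6 libraries (x axis) and without FGFBP1-CM replicate 1 (y axis), colored by role, with a dashed line at equal values. CHAC1 lies below the line at 1.32 against 0.79, and SLC38A2 lies near it at 0.32 against 0.27.

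Beside the members, 157 further genes of the pathway were listed in 9 groups, of which 152 were tested. Of these, 1 passed the threshold, against 0.12% of all genes. It was SLC7A11 (ENSG00000151012), the cystine importer xCT and a reported ATF4 target, with counts of 653, 402 and 522 in Vector-CM and 1302, 733 and 941 in FGFBP1-CM. All FGFBP1-CM libraries were higher after scaling, at 57.4 ± 11.3 CPM (SD, n = 3) against 33.6 ± 3.94 CPM. On the log2 scale the fold change was 0.77 (SE 0.127, adjusted p = 0.0436), and it lost the call when any one Vector-CM library was left out. An opposite-strand transcript overlaps 8.97% of its exon bases. Over the 152 genes, 26 had an unadjusted p under 0.05 with a higher value (17.1%, against 11.1% of all genes) and 12 with a lower one (7.89%, against 10.7%), with a median log2 fold change of 0.05.

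Of the 20 cytosolic aminoacyl-tRNA synthetases, which charge transfer RNAs, 16 had fitted values above 0 and 7 had an unadjusted p under 0.05, all higher (35%, against 11.1% of all genes), with a median log2 fold change of 0.09. The lowest p-values belonged to IARS1, for isoleucine, at 0.29 (SE 0.081, adjusted p = 0.0877), and FARSB, a phenylalanine subunit, at 0.29 (SE 0.083, adjusted p = 0.0923). QARS1 and CARS1, for glutamine and cysteine, were at -0.13 and -0.10. Of the 16 mitochondrial synthetases tested, 13 had values above 0 and 4 had an unadjusted p under 0.05, all higher (25%, against 11.1%), with a median of 0.09. AARS2, for alanine, was at 0.38 (SE 0.122, adjusted p = 0.113), while SARS2 and YARS2 were at -0.36 and -0.06.

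The 17 other amino acid transporters tested included SLC7A11 and 3 more genes with an unadjusted p under 0.05, all higher (23.5% with SLC7A11, against 11.1%), and the list had a median log2 fold change of 0.09. The 3 were SLC38A1, a relative of SLC38A2, at 0.42, SLC38A9, the lysosomal arginine sensor, at 0.30, and SLC3A2, the heavy chain that SLC7A11 and SLC7A5 need at the cell surface, at 0.27, all named after their values were seen. The 2 lowest p-values with a lower value belonged to SLC6A6 at -0.09 and SLC16A10 at -0.21. Of 19 tested genes of amino acid sensing upstream of mTORC1, 4 had an unadjusted p under 0.05, all higher (21.1%, against 11.1%), with a median of 0.05, among them TSC1 at 0.27 and RPTOR at 0.33, while RHEB was at -0.15 and TSC2 at -0.13.

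The kinases, exchange factor and phosphatase that act on eIF2 had 2 genes of 18 with an unadjusted p under 0.05 in each direction (11.1% each, against 11.1% higher and 10.7% lower of all genes) and a median of 0.04. OMA1, the mitochondrial protease that cleaves DELE1, was at 0.45 (SE 0.154, adjusted p = 0.128) and DELE1, which relays mitochondrial stress to eIF2, at -0.19 (SE 0.066, adjusted p = 0.13). EIF2S2 and EIF2S3, subunits of eIF2 itself, were at 0.16 and -0.22. Of 17 other folate and glycine enzymes, 3 were higher (17.6%) and 1 lower (5.88%) at an unadjusted p under 0.05, with a median of 0.02, and DLD and MTRR were at 0.21 and 0.20 while TYMS and FPGS were at -0.18 and -0.16. Of 13 tested enzymes of proline, glutamate and methionine outside the members, 1 was higher (7.69%) and 2 were lower (15.4%), with a median of -0.00054. PYCR3, the cytosolic relative of PYCR1, was at 0.70 (SE 0.217, adjusted p = 0.104) and MAT2B at 0.11, while GLUD1 and AHCY were at -0.21 and -0.17.

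Of 20 other reported ATF4 targets, 1 was higher (5%, against 11.1% of all genes) and 4 were lower (20%, against 10.7%) at an unadjusted p under 0.05, with a median of 0.04. HSPA9 and SQSTM1 were at 0.21 and 0.13, and TSC22D3, a glucocorticoid-induced gene, and BBC3, which encodes the death-promoting protein PUMA, were at -0.48 (SE 0.123, adjusted p = 0.0761) and -0.52 (SE 0.164, adjusted p = 0.11). Of 12 genes of the unfolded protein response outside the ATF4 branch, 8 had fitted values below 0, none was higher and 3 were lower at an unadjusted p under 0.05 (25%, against 10.7%), and the median was -0.11. The groups did not overlap for 2 of the 12, both higher (16.7%, against 12.8% of all genes), and for none that was lower (against 13.2%). PDIA4 and CALR, which fold proteins in the endoplasmic reticulum, were at -0.44 (SE 0.156, adjusted p = 0.135) and -0.28 (SE 0.107, adjusted p = 0.159), while ATF6 and DNAJC3 were both at 0.11.

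Several of these values were smaller without FGFBP1-CM replicate 1. In its absence the log2 fold change of IARS1 was 0.19, that of FARSB 0.18, that of AARS2 0.19 and that of RPTOR 0.20. HSPA9 was then at 0.13 and EIF2S3 at -0.13, TSC22D3 was at -0.31 and BBC3 at -0.32, and PDIA4 was at -0.27 and CALR at -0.17. Without FGFBP1-CM replicate 2 instead, PDIA4 was at -0.715 and CALR at -0.428.

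**Figure D5:**
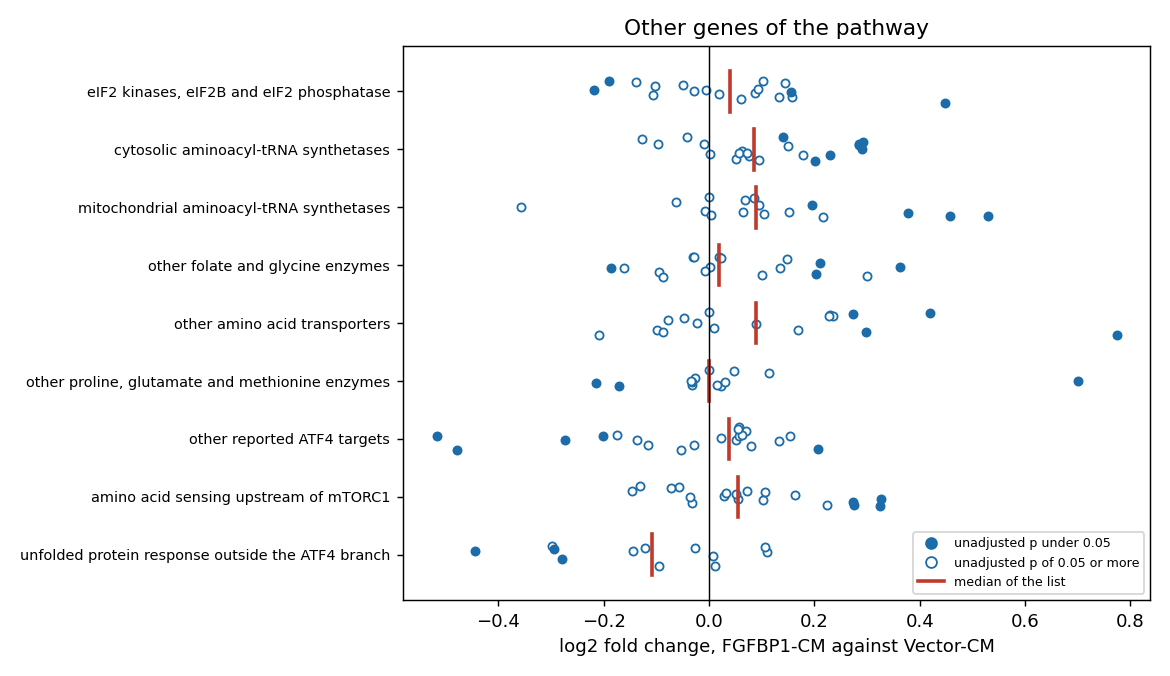
Fitted log2 fold change of the 152 tested pathway genes outside the members, in 9 lists, with filled points for an unadjusted p under 0.05 and red bars for the median of each list. The medians of the 2 synthetase lists lie at 0.09 and that of the unfolded protein response list at -0.11, and SLC7A11 is the point at 0.77.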

How the data were processed

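LX-2 libraries of the Vector-CM and FGFBP1-CM groups (n = 3 each) were grouped by their labels. The authors aligned paired-end reads and counted them per gene, with HISAT2 2.0.5 and featureCounts 1.5.0-p3 in the submitters' processing notes, and deposited raw counts and FPKM values for 60780 rows. Rows without an Ensembl identifier numbered 175 and held 0.0733% to 0.0800% of the counts. The notes name the build hg18, while the table holds no coordinates. Gene coordinates are those of GENCODE release 29 (GRCh38), in which 96.3% of the identifiers were found, and need not be those used for counting. Whether counting used strand is not stated. The genes and lists were chosen with earlier results of these data known.

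The deposited counts entered edgeR 4.0.16 (R 4.3.3). The filter was filterByExpr, scaling was by TMM (trimmed mean of M values), and the test was the quasi-likelihood F-test. Benjamini-Hochberg adjustment covered 16707 genes, and an adjusted p under 0.05 was the threshold. The standard error is the size of the log2 fold change divided by the square root of F. CPM values use the TMM-scaled library size, and FPKM was used as deposited by the authors to compare levels between genes. Values per library are given for members with an unadjusted p under 0.05 and for 11 core members. In each pathway list, genes past the threshold were named, and otherwise the lowest unadjusted p, at most 2 in each direction. One gene named by this rule is not reported here. One of 239 listed names was not found in the table. Alternatives were RLE (relative log expression) scaling, library size only, other filters, the Wald test of DESeq2 1.42.0, limma 3.58.1 on log2(FPKM + 1) and log2(FPKM + 0.1), a block for replicate number, removal of the loess trend (span 0.3) on GC content and length, and leaving out each library.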

Additional observations from a re-analysis of the deposited data

How the results depend on the processing

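Depth limits the low members most, since of those tested CHAC1, ASNS, NUPR1, CBS and CTH had under 100 counts in a library. All-gene calls moved strongly with the settings, and 129 genes had an adjusted p between 0.05 and 0.06. The genes past the threshold numbered 38 with RLE scaling, 17 with library size only, 1382 with no filter beyond 1 count, 11 with a mean of at least 1 CPM, 616 with DESeq2, 1 and 5 with limma on log2(FPKM + 1) and log2(FPKM + 0.1), 124 with the GC and length correction, and 3630 at an unadjusted p under 0.05, against 20. Those 3630 were 1850 higher and 1780 lower, but 2359 and 1286 with library size only. The members past the threshold were 6 with no filter (ATF4, TRIB3, CHAC1, SESN2, PSAT1 and SLC38A2), 2 with DESeq2 and 12 at an unadjusted p, against 0. The cause was not tested.

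Same-numbered libraries did not deviate together, with correlations of -0.09, -0.03 and 0.10, so the numbers were not taken as pairs. With the replicate block 90 genes and 1 member (SLC38A2, adjusted p = 0.0417) passed, and with the replicate block plus GC and length correction 162 genes and 1 member (CHAC1, adjusted p = 0.0499).

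Leaving out each library in turn gave 4 to 883 genes and 0 to 5 members past the threshold, 72 genes and 0 members without FGFBP1-CM replicate 1 and 5 members without FGFBP1-CM replicate 2. The members whose groups did not overlap numbered 7 to 12 higher and 3 to 5 lower. For any gene, groups of 2 and 3 libraries overlap less often than groups of 3 and 3. These counts therefore cannot be set against the shares of all genes given for all 6 libraries. The member median was -9.74e-05 to 0.10. SLC7A11 passed in 10 of 16 alternatives.

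Some members changed sign, most of them near 0. DDIT4 and SLC1A4, at 0.14 and 0.16 with all 6 libraries, did so only without FGFBP1-CM replicate 1. With library size only, limma on log2(FPKM + 1) and limma on log2(FPKM + 0.1), in that order, PHGDH was at 0.0191, 0.0175 and 0.0188, ALDH1L2 at 0.0188, 0.0105 and 0.0149, SLC7A5 at 0.0128, 0.00444 and 0.00501, and VLDLR at 0.0199, 0.0102 and 0.0203. With the GC and length correction, alone and with the replicate block, SLC7A5 was at 0.0506 and 0.0496, XPOT at -0.0759 and -0.0748, and EIF4EBP1 at 0.0171 and 0.0153. Without 1 library at a time the log2 fold change ran from -0.0649 to 0.34 for NUPR1, -0.0911 to 0.285 for DDIT4, -0.0332 to 0.00403 for PHGDH, -0.0818 to 0.0381 for ALDH1L2, -0.397 to 0.225 for CBS, -0.0193 to 0.247 for SLC1A4, -0.000406 to 0.0245 for SLC1A5, -0.0406 to 0.0432 for SLC7A1, -0.091 to 0.0348 for SLC7A5, -0.00533 to 0.105 for STC2, -0.0626 to 0.0648 for VLDLR, -0.023 to 0.0256 for XPOT and, outside the members, -0.244 to 0.0544 for TSC2. No other member changed sign under these alternatives.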
